A study of Mus musculus with 14 samples.

Results

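The mouse genes Gli3, Ptgds, Gm29797, Ces1d, Hoxa7, Trpm6 and Myo1e are described here in oocytes that lack Clpx and in oocytes that keep it. They were selected on their measured values, because oocytes with and without Clpx differed in the same direction before and after ovulation. They are 7 of the 16417 genes listed in the count tables of both stages, and 3 of them were higher and 4 lower without Clpx. The direction and size of that difference are therefore a description, without a test, and the tests below concern the change from 1 stage to the other.

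The study sequenced RNA from oocytes of 2 stages and 2 genotypes with SMART-Seq2, which amplifies full-length cDNA made from minute amounts of RNA. Germinal vesicle (GV) oocytes are held in meiotic prophase inside the follicle, and ovulated oocytes have resumed meiosis and been released. The group called WT carried the floxed alleles (Clpx fl/fl, spelled Clpx fl/f in the titles of the ovulated samples) with no Cre named in the labels, and the group called CKO carried Clpx fl/fl and Zp3-Cre. Zp3-Cre is driven by the promoter of a zona pellucida gene that is active in growing oocytes, so the deletion precedes both stages. All groups thus carry the floxed allele, no group carries Cre alone, and effects of Cre and of Clpx loss cannot be told apart. There were 4 WT and 4 CKO libraries of GV oocytes and 3 WT and 3 CKO libraries of ovulated oocytes. The labels give neither the age of the mice nor the number of oocytes or animals behind a library, so the spread between libraries may be partly technical.

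The 14 libraries held between 25086506 and 28471453 estimated read counts each. Levels are given as CPM, counts per 1000000 of the TMM-scaled library size, on a scale common to the 14 libraries. Clpx, which encodes the unfoldase subunit of a mitochondrial matrix protease, stood between 39.6 and 58.1 CPM in GV WT libraries and between 0.676 and 1.44 CPM in GV CKO libraries. In ovulated oocytes it stood between 17.0 and 19.1 CPM in WT and between 0.269 and 0.575 CPM in CKO, so every library matched its genotype label. All 14 oocyte markers searched, such as Gdf9 and Zp3, were listed, with a summed level of at least 15500 CPM in every library. Of 21 granulosa and cumulus cell markers 14 were listed, with a summed level of 62.3 to 92.2 CPM in GV WT, 47.0 to 75.1 CPM in GV CKO, 67.0 to 129 CPM in ovulated WT and 68.5 to 109 CPM in ovulated CKO libraries. Cyp19a1 carried most of that sum, with group means of 41.4 to 75.9 CPM, and Nr5a2 had group means of 9.26 to 14.0 CPM. Cyp11a1 averaged up to 8.67 CPM, Hsd3b1 reached 12.1 CPM in a library, Fshr averaged at most 0.459 CPM, and Amh and Foxl2 were not listed in both tables. Theca and stroma markers (5 of 11 listed) summed to between 0.775 and 10.1 CPM and oviduct markers (4 of 7 listed) to between 0.379 and 6.49 CPM. Endothelial and blood markers (9 of 11 listed) summed to between 28.8 and 115 CPM. Pecam1 carried most of that sum, with group means of 31.7 to 68.7 CPM, and Kdr and Tek averaged up to 6.17 and 5.41 CPM. Cdh5 averaged at most 0.0451 CPM and Lyz2 at most 0.0812 CPM, and Ptprc was not listed in both tables. These sums overlapped between WT and CKO at both stages, and the part of other cells in the results was not tested. In such libraries fewer cells of a type and less RNA per cell cannot be told apart, and values are shares of the RNA sequenced.

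The 7 genes are known for different functions. Gli3 encodes a zinc finger transcription factor of Hedgehog signalling, which is cut to a repressor when the pathway is silent and acts on target genes when Smoothened is active. Ptgds encodes lipocalin-type prostaglandin D synthase, which turns prostaglandin H2 into prostaglandin D2, and Gm29797 is a predicted gene. Ces1d encodes a carboxylesterase that hydrolyses esters and triacylglycerol in the endoplasmic reticulum. Hoxa7 encodes a homeodomain transcription factor of the HoxA cluster, which patterns the body axis in the embryo. Trpm6 encodes an ion channel with a kinase domain that carries magnesium, and Myo1e encodes a single-headed class I myosin that links membranes to actin. In growing oocytes transcripts are made and stored. Transcription stops before the meiotic divisions, and stored transcripts are then translated, kept or degraded.

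The genes lie on 6 chromosomes (build mm10). Gli3 (gene ID 14634) lies at chr13:15463723-15730026 on the plus strand, Ptgds (19215) at chr2:25466709-25470110 on the minus strand and Gm29797 (101056205) at chr2:181655762-181659614 on the plus strand. Ces1d (104158) lies at chr8:93166072-93197804 on the minus strand and Hoxa7 (15404) at chr6:52215623-52218573 on the minus strand. Trpm6 (225997) lies at chr19:18730177-18892521 and Myo1e (71602) at chr9:70207350-70400067, both on the plus strand. Myo1e lies on the chromosome of Clpx, 4.91 Mb away. SMART-Seq2 does not mark the strand of a read, and genes of the GENCODE annotation overlap Gli3, Ces1d and Trpm6, but none of these is listed in the count tables. Of the 50-base stretches of the Ces1d transcript 1.28% also occur in transcripts of other genes, most of them in Ces1b, and for the other 6 genes none do.

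The 250 bases before the RefSeq start were read for 6 of the 7 genes, since genes that shift together can be compared there. For Gm29797, and likewise for Ptgds and Trpm6, the RefSeq transcript start used lies inside the gene span given above, so the stretch before it lies inside that span too. Shown are the 3 that held a match to any of 7 motifs searched on both strands, with the matches in capitals (RefSeq, build GRCm38.p6, which is mm10, written 5′ to 3′ on the gene's strand).
Gli3, chr13:15463473-15463722, plus strand: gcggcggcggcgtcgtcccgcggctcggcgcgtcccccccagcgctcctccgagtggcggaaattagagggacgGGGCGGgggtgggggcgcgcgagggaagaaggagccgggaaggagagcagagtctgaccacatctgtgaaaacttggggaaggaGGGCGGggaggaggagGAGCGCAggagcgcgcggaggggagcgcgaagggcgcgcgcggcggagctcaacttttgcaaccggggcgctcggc
Gm29797, chr2:181656632-181656881, plus strand: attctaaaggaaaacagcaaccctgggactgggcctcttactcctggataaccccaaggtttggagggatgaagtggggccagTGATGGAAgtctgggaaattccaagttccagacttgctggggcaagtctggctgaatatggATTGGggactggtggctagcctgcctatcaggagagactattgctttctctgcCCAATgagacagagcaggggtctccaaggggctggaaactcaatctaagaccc
Myo1e, chr9:70207100-70207349, plus strand: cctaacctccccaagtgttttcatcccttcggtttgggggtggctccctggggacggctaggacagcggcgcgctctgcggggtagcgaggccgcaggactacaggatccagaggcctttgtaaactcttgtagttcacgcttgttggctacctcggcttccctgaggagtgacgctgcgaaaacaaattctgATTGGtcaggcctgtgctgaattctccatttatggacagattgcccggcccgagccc
The Gli3 stretch holds the GC box GGGCGG at 176 and 92 bases before the start and a metal response element (TGCACNC or TGCGCNC, read on the other strand) at 76 bases. The Gm29797 stretch holds the ATF4 sequence TGATGNAA at 167 bases and CCAAT boxes at 106 bases (other strand) and 53 bases, and the Myo1e stretch holds a CCAAT box at 57 bases (other strand). Of all 32851 promoter stretches of this length 32.7% hold GGGCGG, 21.4% a metal response element, 3.45% TGATGNAA and 33.8% CCAAT. GLI binding sequences (GACCACCCA, 0.225% of all stretches), NOBOX binding sequences (TAATTG, 7.17%) and TATAAA (12.4%) had no match in these 6 windows, and no motif was found in more than 2 of them. Gli3 has the stretch richest in GC of the 6, at 72.8% with 34 CpG sites, against 52.4% and 6 CpG sites in the median stretch. Gm29797 lies at the median in GC, at 52.4%, and holds 0 CpG sites.

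Among the 3 genes higher in CKO, Gli3 had the highest FPKM (reads per length and library size) after ovulation. In GV WT libraries Gli3 stood at 7.01, 20.0, 9.74 and 15.1 CPM in replicates 1 to 4, and in GV CKO libraries at 56.5, 57.9, 74.1 and 23.1 CPM. The groups did not overlap, but CKO replicate 4 lay close to WT replicate 2. After ovulation it stood at 94.8, 31.7 and 65.6 CPM in WT and at 121, 163 and 148 CPM in CKO, again with no overlap. CKO over WT had a log2 fold change of 2.03 (SE 0.37, 4.08-fold) at GV and 1.16 (SE 0.369, 2.24-fold) after ovulation. By group mean the order was GV WT (13.0 ± 5.78 CPM, SD, n = 4), GV CKO (52.9 ± 21.4, n = 4), ovulated WT (64.0 ± 31.6, n = 3) and ovulated CKO (144 ± 21.4, n = 3), of which GV CKO and ovulated WT overlapped.

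Ptgds had a wide spread within groups, and among GV CKO libraries the highest was 12.6 times the lowest. In GV WT libraries it stood at 0.987, 1.96, 1.94 and 3.12 CPM and in GV CKO libraries at 2.03, 6.93, 25.6 and 10.5 CPM. CKO replicate 1 lay inside the WT range and the other 3 CKO libraries lay above it, so Ptgds was the 1 member whose GV groups overlapped. In ovulated oocytes it stood at 1.31, 2.19 and 0.372 CPM in WT and at 11.0, 16.1 and 2.83 CPM in CKO, groups that did not overlap. Behind the ovulated WT values were 37, 75 and 11 counts. The CKO over WT difference in log2 was 2.52 (SE 0.625) at GV and 2.90 (SE 0.727) after ovulation. Without GV CKO replicate 3 the GV value was 1.72. In order of the means, ovulated WT (1.29 ± 0.908 CPM, SD, n = 3) overlapped with GV WT (2.0 ± 0.871, n = 4), GV WT with ovulated CKO (9.97 ± 6.69, n = 3), and ovulated CKO with GV CKO (11.3 ± 10.2, n = 4).

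Gm29797 stood far lower after ovulation than at GV. It stood at 25.4, 32.8, 26.0 and 32.2 CPM in GV WT and at 52.9, 67.4, 76.9 and 66.7 CPM in GV CKO libraries, 2 narrow groups well apart. After ovulation it stood at 0.283, 0.758 and 0.304 CPM in WT, from 8, 26 and 9 counts. The ovulated CKO libraries held 11.5, 2.79 and 0.808 CPM, from 370, 102 and 24 counts. They did not overlap with WT, but replicate 3 lay just above the highest WT library, and the highest CKO library was 14.2 times the lowest. The log2 fold change of CKO over WT was 1.18 (SE 0.181, 2.27-fold) at GV and 3.39 (SE 0.893, 10.5-fold) after ovulation, and the latter was 1.99 without CKO replicate 1. By mean the order was ovulated WT (0.449 ± 0.268 CPM, SD, n = 3), ovulated CKO (5.02 ± 5.67, n = 3), GV WT (29.1 ± 3.91, n = 4) and GV CKO (66.0 ± 9.89, n = 4), and no neighbours in it overlapped.

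The ovulated CKO libraries also differed in how near their whole profile stood to that of GV oocytes. On a scale with the other ovulated libraries at 0% and the GV mean at 100%, over 13151 genes without the 7 described here, ovulated CKO replicates 1, 2 and 3 stood at 29.9%, 22.1% and −16.4%. Ovulated WT replicates 1, 2 and 3 stood at −21.7%, −3.73% and 7.05%. Over the 3 ovulated CKO libraries Gm29797 had the order of this scale and Hoxa7, described below, the reverse order, and the other members had neither. Over the 3 ovulated WT libraries Hoxa7 instead had the order of the scale, as did Ces1d. Trpm6 had the reverse order there, and the other members, Gm29797 among them, had neither. Orders of 3 libraries often match by chance. The part of this position in the CKO differences of the 7 genes was not tested.

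**Figure D1:**
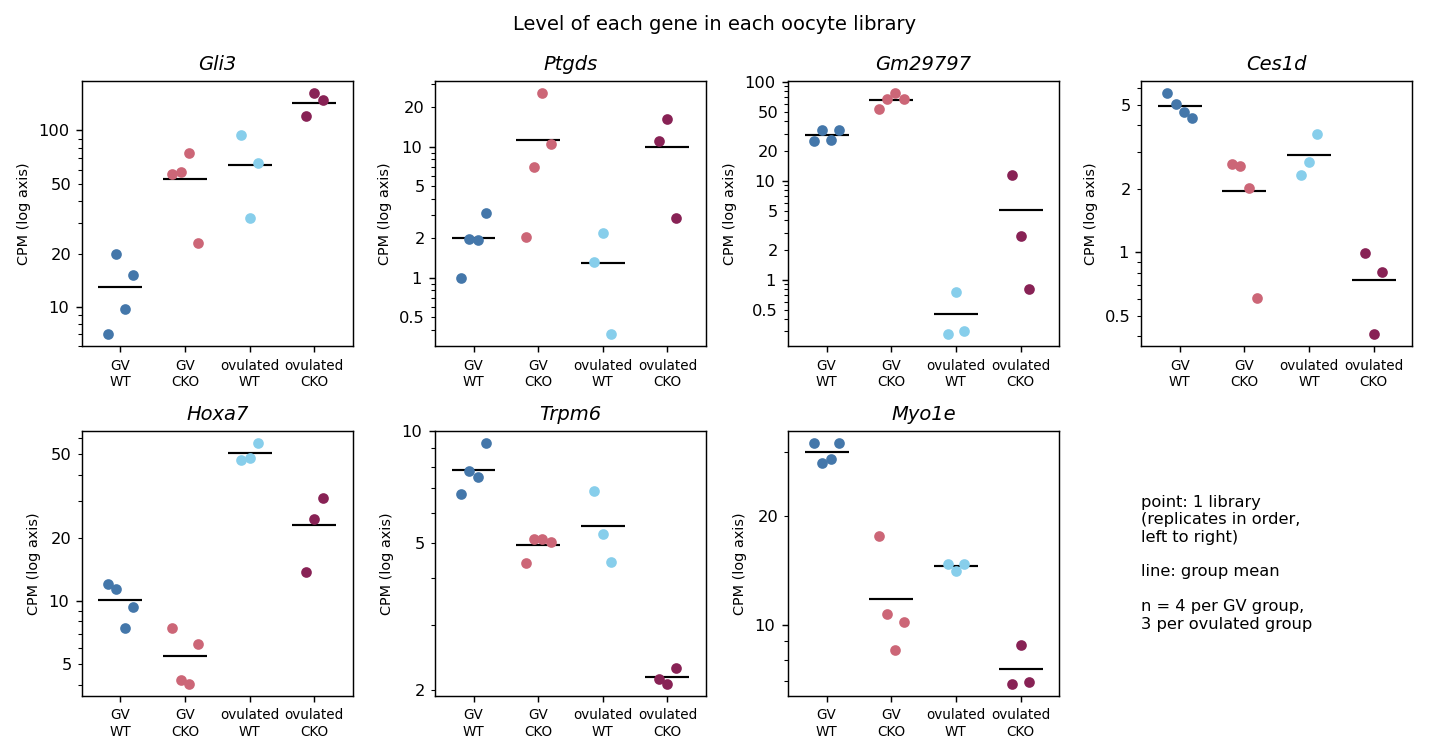
Level of the 7 genes in each library, in CPM on a log axis, by stage and genotype (points are libraries, lines are group means, n = 4 per GV group and 3 per ovulated group). Gli3, Ptgds and Gm29797 stand higher in CKO at both stages, with 1 GV CKO library of Ptgds (2.03 CPM) inside the WT range, and the other 4 genes stand lower without overlap.

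Among the 4 genes lower in CKO, Ces1d had the largest ratio after ovulation. It stood at 5.69, 5.07, 4.64 and 4.32 CPM in GV WT and at 2.62, 2.57, 2.02 and 0.608 CPM in GV CKO libraries. Each CKO library lay below each WT library, and replicate 4, from 11 counts, was the lowest. Ovulated libraries held 2.34, 2.68 and 3.65 CPM in WT and 0.992, 0.411 and 0.808 CPM in CKO, where counts were between 15 and 32, again without overlap. CKO over WT had a log2 fold change of −1.34 (SE 0.365) at GV and −1.99 (SE 0.57) after ovulation. By mean the order was ovulated CKO (0.737 ± 0.297 CPM, SD, n = 3), GV CKO (1.96 ± 0.939, n = 4), ovulated WT (2.89 ± 0.68, n = 3) and GV WT (4.93 ± 0.593, n = 4). Of these, GV CKO overlapped with both of its neighbours and GV WT stood apart.

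Hoxa7 was lower in CKO by similar ratios at both stages while its level differed several-fold between them. It stood at 12.1, 11.4, 7.44 and 9.35 CPM in GV WT and at 7.4, 4.21, 4.04 and 6.24 CPM in GV CKO libraries. The groups met within rounding, with CKO replicate 1 just under WT replicate 3. After ovulation the values were 47.0, 48.0 and 56.7 CPM in WT and 13.7, 24.6 and 30.9 CPM in CKO, groups that lay well apart. The log2 ratio of CKO to WT was −0.89 (SE 0.265) at GV and −1.13 (SE 0.348) after ovulation. The 4 groups followed each other without overlap in the order GV CKO (5.47 ± 1.63 CPM, SD, n = 4), GV WT (10.1 ± 2.12, n = 4), ovulated CKO (23.0 ± 8.68, n = 3) and ovulated WT (50.6 ± 5.34, n = 3).

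Trpm6 had little spread within the CKO groups. It stood at 6.74, 7.79, 7.5 and 9.29 CPM in GV WT and at 4.4, 5.1, 5.11 and 5.03 CPM in GV CKO libraries. Ovulated libraries held 6.87, 5.28 and 4.43 CPM in WT and 2.14, 2.08 and 2.29 CPM in CKO. The genotypes did not overlap at either stage, whereas ovulated WT overlapped with both GV groups. On the log2 scale CKO differed from WT by −0.68 (SE 0.212) at GV and −1.36 (SE 0.423) after ovulation. The lowest mean was that of ovulated CKO (2.17 ± 0.106 CPM, SD, n = 3) and the highest that of GV WT (7.83 ± 1.07, n = 4).

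Myo1e had the narrowest WT groups of the 7 genes, with a highest library 1.14 times the lowest at GV and 1.04 times after ovulation. It stood at 31.7, 27.9, 28.7 and 31.8 CPM in GV WT and at 17.6, 10.7, 8.52 and 10.2 CPM in GV CKO libraries. CKO replicate 1 was the highest of its group and still far below WT. In ovulated oocytes it stood at 14.7, 14.1 and 14.7 CPM in WT and at 6.88, 8.82 and 6.97 CPM in CKO, without overlap. The log2 ratio of CKO to WT was −1.37 (SE 0.228) at GV and −0.96 (SE 0.325) after ovulation. By mean the order was ovulated CKO (7.56 ± 1.1 CPM, SD, n = 3), GV CKO (11.8 ± 4.0, n = 4), ovulated WT (14.5 ± 0.321, n = 3) and GV WT (30.0 ± 2.03, n = 4). The GV CKO libraries overlapped with both ovulated groups, and GV WT stood apart.

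Since the genes were chosen for a like shift, the share of all genes with the same pattern is the frame for these values. CKO and WT libraries did not overlap at both stages for 6 of the 7 members. Over the 13158 genes tested across the stages, CKO was higher without overlap at both stages for 0.122% and lower for 0.251%, in all 49 genes of which 6 are members, and it was higher at 1 stage and lower at the other for 0.122%. At a single stage the groups did not overlap for 3.65% of genes at GV and for 10.6% after ovulation. By means alone CKO was higher at both stages for 30.4% of genes and lower at both for 25.4%. On the deposited FPKM, and with CPM scaled to total counts, 4 of the 7 members had no overlap at both stages. Gli3 then overlapped at GV (2.44 FPKM in CKO replicate 4 against 2.87 in WT replicate 2) and Gm29797 after ovulation (0.44 FPKM in CKO replicate 3 against 0.46 in WT replicate 2). The 4 genes lower in CKO had no overlap on any of the 3 scales.

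The size of the CKO difference was compared between the stages as a description. The log2 fold change after ovulation minus that at GV was 2.21 (SE 0.912) for Gm29797, the largest of the 7. It was within 1 SE of 0 for Ptgds (0.38, SE 0.959), Hoxa7 (−0.24, SE 0.437) and Ces1d (−0.65, SE 0.677), and between 1 and 2 SE for Gli3 (−0.86, SE 0.523), Trpm6 (−0.68, SE 0.473) and Myo1e (0.41, SE 0.397).

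**Figure D2:**
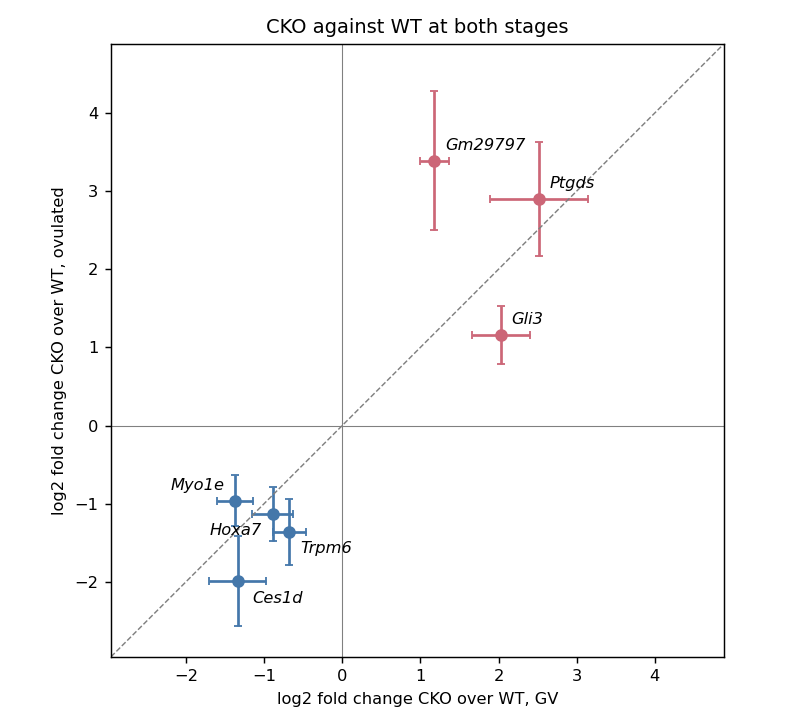
Log2 fold change of CKO over WT at GV (horizontal) and after ovulation (vertical) for the 7 genes, with bars of 1 SE and a dashed line of equal change (red, higher in CKO; blue, lower in CKO). The genes were chosen to lie in the lower left or upper right, and Gm29797 lies farthest from the dashed line, at 1.18 and 3.39.

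The change from GV to ovulated oocytes did not enter the choice of the genes and was tested in each genotype (edgeR, adjusted over 13158 genes, threshold 0.05). Counts of each stage were deposited separately. Any difference in preparation, sequencing or quantification between the stages cannot be told apart from stage itself. Rises and falls below are changes in the share of the RNA sequenced, and these values do not give the number of transcripts per oocyte. Whether transcripts were captured equally at both stages was not tested. In WT oocytes Gli3 and Hoxa7 rose, Gm29797 and Myo1e fell, and Ptgds, Ces1d and Trpm6 did not pass. In CKO oocytes Gli3 and Hoxa7 rose, and Gm29797, Trpm6, Ces1d and Myo1e fell. Most genes differ between these stages: in WT 29.7% of all genes tested rose and 34.0% fell (63.7% in all), and in CKO 25.8% rose and 29.9% fell (55.7% in all). The 4 of 7 members called in WT and the 6 of 7 called in CKO are thus read against stage differences in more than 1 of 2 genes, and the counts of members were not tested against that background.

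Both transcription factor genes rose in both genotypes. Hoxa7 rose by a log2 fold change of 2.33 in WT (SE 0.305, edgeR adjusted p = 9.93e-06) and of 2.07 in CKO (SE 0.306, edgeR adjusted p = 4.77e-05). Gli3 rose by 2.31 in WT (SE 0.417, edgeR adjusted p = 0.000166) and by 1.45 in CKO (SE 0.408, edgeR adjusted p = 0.0065). Hoxa7 thus moved with the stage against its CKO difference, and Gli3 moved with the stage in the direction of its CKO difference. For Gli3 the ovulated WT libraries overlapped with the GV CKO libraries, as given above.

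Gm29797 had the largest stage change of the 7 genes. It fell 63.1-fold in WT (log2 fold change −5.98, SE 0.723, edgeR adjusted p = 5.05e-06) and 13.1-fold in CKO (−3.71, SE 0.618, edgeR adjusted p = 0.000125). All ovulated libraries of either genotype lay below all GV libraries. Counts of 8 to 26 in ovulated WT limit the precision of the WT value.

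Myo1e fell 2.07-fold in WT (log2 fold change −1.05, SE 0.261, edgeR adjusted p = 0.00229), with all ovulated WT libraries below all GV WT libraries, a call lost under scaling to total counts (−0.71). In CKO it fell 1.55-fold (−0.64, SE 0.26, edgeR adjusted p = 0.0468). That call was lost under 9 of 12 alternatives, among them without GV CKO replicate 1, 2 or 4, without ovulated CKO replicate 1 or 3, and under scaling to total counts (−0.04). Trpm6 fell 2.26-fold in CKO (−1.18, SE 0.275, edgeR adjusted p = 0.00182) and had a value of −0.50 in WT (SE 0.265, edgeR adjusted p = 0.107). Ces1d fell 2.66-fold in CKO (−1.41, SE 0.461, edgeR adjusted p = 0.0154) and had −0.77 in WT (SE 0.431, edgeR adjusted p = 0.128). The Ces1d call in CKO was lost without GV CKO replicate 1, GV CKO replicate 2 or ovulated CKO replicate 2 (−1.13 each time). It was also lost when the CKO libraries were fitted alone (−1.30) and under scaling to total counts (−0.89). The Trpm6 call in CKO was lost under scaling to total counts (−0.59) and with a replicate block (−1.03, edgeR adjusted p = 0.06). For Trpm6 and Ces1d the difference of the stage change between the genotypes is the same quantity as the stage difference of the CKO effect above, and was not tested because the choice of genes used it in part.

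Ptgds passed in neither genotype. Its stage value was −0.61 in WT (SE 0.743, edgeR adjusted p = 0.48) and −0.18 in CKO (SE 0.695, edgeR adjusted p = 0.842), and the CKO value turned to 0.62 without GV CKO replicate 3, to 0.26 without ovulated CKO replicate 3 and to 0.36 under scaling to total counts. With each library left out in turn the value ran from −0.74 to 0.62 in CKO and from −1.28 to −0.15 in WT. Scaling to total counts moved the median of all genes by 0.34 in the WT and by 0.59 in the CKO stage comparison, and stage values are given relative to the TMM scale. Under it the rising share of all called genes was 56.0% instead of 46.6% in WT and 67.5% instead of 46.3% in CKO.

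**Figure D3:**
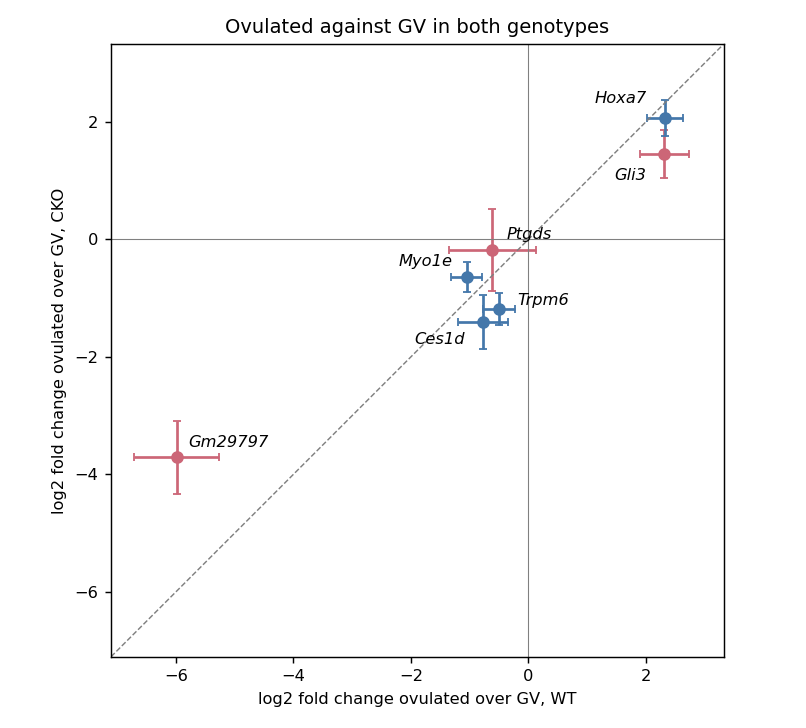
Log2 fold change of ovulated over GV oocytes in WT (horizontal) and CKO (vertical) for the 7 genes, with bars of 1 SE and a dashed line of equal change (red, higher in CKO; blue, lower in CKO). Hoxa7 and Gli3 rise in both genotypes, Gm29797 falls in both, with values of −5.98 in WT and −3.71 in CKO, and Ptgds passes the test in neither.

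Levels between genes were compared as the deposited FPKM, which is per length of transcript. In GV WT oocytes Gm29797 was the most abundant of the 7 (12.0 ± 1.23 FPKM, SD, n = 4), and Myo1e (6.7 ± 1.42), Hoxa7 (5.5 ± 1.56) and Ptgds (3.09 ± 0.97) came after it. Ces1d (2.71 ± 0.748), Gli3 (1.93 ± 0.672) and Trpm6 (1.14 ± 0.138) had the lowest FPKM at that stage. In ovulated WT oocytes Hoxa7 led with 34.5 ± 5.36 FPKM (SD, n = 3), which placed it at percentile 86.8 of the genes listed at both stages. Gli3 came next with 12.2 ± 4.78 FPKM. Gm29797 was then the least abundant at 0.247 ± 0.186 FPKM. In ovulated CKO oocytes Gli3 led with 31.0 ± 6.42 FPKM (SD, n = 3), above Ptgds (21.7 ± 15.8) and Hoxa7 (16.5 ± 5.72), whose libraries spread widely. Trpm6 (0.427 ± 0.0208) and Ces1d (0.517 ± 0.195) had the lowest FPKM of the 7 there.

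Within groups, no ordering of the libraries was common to the 7 genes. With each group's mean removed, the Pearson correlation of log2 CPM over the 14 libraries, a description over libraries that share depth and scaling, lay between −0.69 (Gm29797 with Hoxa7) and 0.54 (Ptgds with Gm29797) for the 21 pairs. The median was −0.08, and 9 pairs were above 0. GV CKO replicate 3 was the highest of its group for Gli3, Ptgds, Gm29797 and, narrowly, Trpm6, and the lowest for Hoxa7 and Myo1e. It had the most genes with a count of its group, 15802. Replicate 4 of GV CKO was the lowest for Gli3 and Ces1d, with 15051 genes with a count. Ovulated CKO replicate 3 was the lowest of its group for Ptgds and Gm29797 and the highest for Hoxa7 and Trpm6. Replicate 1 of ovulated CKO was the highest for Gm29797 and Ces1d and the lowest for Gli3, Hoxa7 and Myo1e.

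**Figure D4:**
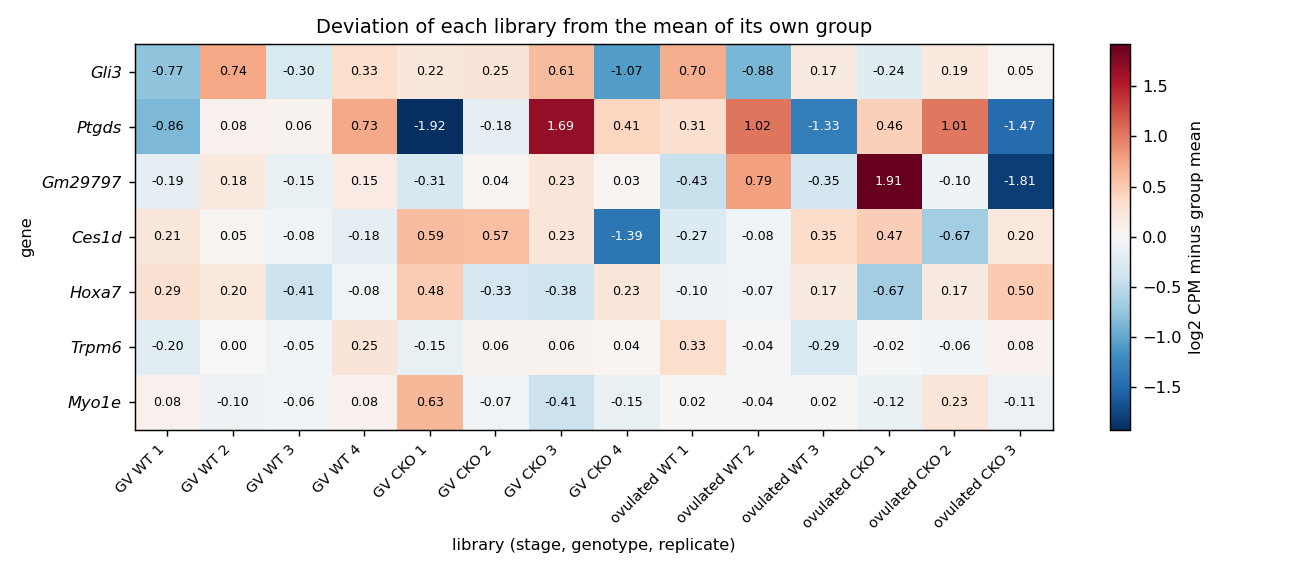
Log2 CPM of each gene in each of the 14 libraries minus the mean of that library's group (red above, blue below; the numbers are the deviations). Ptgds and Gm29797 deviate most, with −1.92 for Ptgds in GV CKO replicate 1 and 1.91 for Gm29797 in ovulated CKO replicate 1, and no library is high or low for all 7 genes.

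The genes with the most similar pattern to each member were found by correlation of log2 CPM over the 14 libraries, with each stage's mean removed, among 10960 genes. This measure includes the CKO difference that chose the members. Gm29797 was most like Mrps33, a mitochondrial ribosomal protein gene (r = 0.96), Atpif1, which encodes the inhibitor of the mitochondrial ATP synthase (0.95), and Hikeshi, a nuclear import factor of heat shock protein 70 (0.95). With the group means removed these 3 had values of 0.93, 0.96 and 0.95. Trpm6 and Myo1e were most like Clpx itself (0.89 and 0.90), but with the group means removed the values were −0.01 and −0.40. Hoxa7 was most like the collagen gene Col25a1 (0.93), the glutathione synthetase gene Gss (0.91) and the transcription factor gene Tcf4 (0.90). Ptgds was most like the kinase gene Prkx (0.92), Gm4907 (0.88) and Fbxo30 (0.87), and Gli3 was most like Gng12 (0.86), Lin54 (0.85) and Agpat5 (0.85). Ces1d was most like L3mbtl3 (0.89), Gm973 (0.88) and Trib2 (0.88).

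The other genes of each member's pathway or family were examined next, in 6 lists. In the CKO against WT comparisons, where 0.0245% of all genes tested passed at GV and 0.0083% after ovulation (edgeR adjusted p under 0.05; 5.74% and 7.76% unadjusted), no gene of any of the 6 lists passed at either stage. At the unadjusted threshold each list had between 0 and 2 genes. DESeq2, which called 39 and 114 genes over all, called 0 genes of these lists.

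Of 28 other genes of the Hedgehog pathway, 15 were tested at GV and 14 after ovulation, with median log2 fold changes of CKO over WT of −0.15 and 0.28 (0.02 and −0.0 over all genes). Ptch1, the receptor and a standard target of the pathway, averaged at most 0.645 CPM in any group and Gli1, another target, at most 0.124 CPM, both named after their values were seen. From GV to ovulated oocytes 5 of 16 genes rose and 5 fell in WT, and 6 rose and 3 fell in CKO, which is 62.5% and 56.2% of the list beside 63.7% and 55.7% of all genes. Disp1, which releases lipid-bearing Hedgehog ligand, fell in both (−5.02 in WT, edgeR adjusted p = 7.5e-07, and −3.65 in CKO, 7.63e-06), as did Btrc, a subunit of the ubiquitin ligase that processes GLI proteins (−3.55 and −2.59, edgeR adjusted p = 1.16e-06 and 1.74e-05). Prkaca, the catalytic subunit of protein kinase A that primes GLI3 for processing, rose (1.41 and 2.01, edgeR adjusted p = 0.000285 and 2.57e-05).

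Of 26 other prostaglandin genes, 15 were tested at GV and 16 after ovulation, with CKO over WT medians of −0.07 and 0.32. Of the other genes around prostaglandin D2, the second synthase gene Hpgds and the receptor genes Ptgdr and Ptgdr2 were not in both tables. With the stage 2 genes rose and 8 of 17 fell in WT, and 1 rose and 8 fell in CKO, together 58.8% and 52.9% of those tested against 63.7% and 55.7% of all genes. Ptgis, the prostacyclin synthase gene, fell (−6.22 in WT, edgeR adjusted p = 6.61e-06, and −4.13 in CKO, 0.000118), and so did Ptgr1, a prostaglandin reductase gene (−4.65 and −3.72, edgeR adjusted p = 2.6e-06 and 2.05e-05), while Ptgds did not pass.

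Of 25 other carboxylesterases and neutral lipid hydrolases only 5 reached the tests, none of them a Ces gene, with CKO over WT medians of 0.25 and 0.47. Ces1d was therefore the 1 carboxylesterase of its family above the count filter. In both genotypes 1 of the 5 rose and 3 fell with the stage, where 63.7% of all genes changed in WT and 55.7% in CKO. Aadac, an arylacetamide deacetylase gene, fell (−3.76 in WT and −2.32 in CKO, edgeR adjusted p = 1.59e-05 and 0.000721), and the lipolysis genes Abhd5 (−1.75 and −1.33) and Pnpla2 (−2.31 and −1.59) fell too.

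Of 52 other Hox genes and their partners 8 were tested in each CKO comparison, with medians of 0.03 and 0.10. Most other Hox genes had too few counts for the tests, and Hoxd13 reached a mean of 3.57 CPM in ovulated CKO oocytes. In WT 6 of 10 rose with the stage and 1 fell, and in CKO 3 rose and 0 fell (70.0% and 30.0% called, with 63.7% and 55.7% over all genes). Pbx2 and Pbx3, which encode homeodomain cofactors of HOX proteins, rose in both (2.97 and 2.97 for Pbx2, edgeR adjusted p = 0.000192 and 0.00028, and 1.57 and 1.33 for Pbx3). Meis2, another cofactor gene, had the highest FPKM of the list in GV WT and stood at 777 ± 83.6 CPM there (SD, n = 4).

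Of 29 TRPM and magnesium transport genes 23 were tested at GV and 22 after ovulation, with CKO over WT medians of −0.05 and 0.11. With the stage 6 rose and 9 of 23 fell in WT, and 5 rose and 9 fell in CKO, a called share of 65.2% and 60.9% where all genes had 63.7% and 55.7%. Slc41a1, a magnesium exporter gene, rose (1.95 and 2.31, edgeR adjusted p = 1.87e-05 and 1.01e-05), whereas the receptor gene Egfr fell (−2.64 and −1.77, edgeR adjusted p = 1.15e-06 and 3.36e-05). Trpm7, the close relative of Trpm6, averaged 19.6 CPM in GV WT and 25.3 CPM in GV CKO, 33.9 CPM in ovulated WT and 36.9 CPM in ovulated CKO. Its CKO over WT log2 fold changes, 0.36 at GV and 0.10 after ovulation, did not pass (edgeR adjusted p = 0.87 and 0.945), and it is named after its values were seen.

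Of 23 other unconventional myosin genes 17 were tested at GV and 15 after ovulation, with CKO over WT medians of −0.12 and −0.06. With the stage 7 rose and 4 of 17 fell in WT, and 6 rose and 3 fell in CKO, or 64.7% and 52.9% beside 63.7% and 55.7% of all genes. Myo10, a myosin of filopodia, rose (2.14 in WT and 1.86 in CKO, edgeR adjusted p = 4.73e-05 and 0.000224). Myo1c, a class I myosin like Myo1e, rose as well (1.38 and 2.03, edgeR adjusted p = 0.000105 and 9.43e-06), whereas Myo1e fell.

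No other gene within 1 Mb of a member passed in either CKO against WT comparison with edgeR. DESeq2 called 2 genes there, Ppdpf (1.94) and Samd10 (3.06), both near Gm29797 after ovulation and named after their values were seen. The nearest tested genes of Myo1e were Gtf2a2 (0.34 at GV and −0.30 after ovulation) and Ccnb2 (0.23 and 0.16), and those of Gm29797 were Prpf6 (−0.25 and −0.39) and Tcea2 (0.50 and 0.53), none past the test. Of the other genes within 10 Mb of Clpx, a stretch that includes Myo1e, 0 of 142 passed at GV (8 unadjusted, median −0.0) and 0 of 137 after ovulation (14 unadjusted, median 0.09), where DESeq2 called 0 and 2.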

How the data were processed

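RNA of 14 mouse oocyte libraries was analysed from 2 count tables and 2 FPKM tables. The authors deposited expected counts, unscaled estimates per gene of which 14.45% to 16.32% in a library are fractional. They also deposited FPKM, in which the estimates are divided by gene length and sequencing depth. The genome build was mm10, per the submitters' processing notes, and the aligner, counting tool and annotation are not given in the sources used here.

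The 7 genes, the 6 lists, the rule for named genes and the tests were chosen with earlier results of these data known. Groups were taken from the sample labels. Expected counts were rounded and analysed with edgeR 4.0.16 in R 4.3.3 (TMM scaling, robust quasi-likelihood test, genes kept by filterByExpr at a count of at least 10), with Benjamini-Hochberg adjustment over all genes tested. CKO was compared with WT on the libraries of each stage (12265 genes at GV, 12044 after ovulation), and the stages on all 14 libraries as 4 groups (13158 genes). The members passed the count filter in each comparison. Their SE is the log2 fold change divided by the square root of F. CPM is per 1000000 TMM-scaled counts of the 14 libraries. Log2 CPM used a prior count of 2. The rule named the 7 genes and Clpx, up to 3 genes per list that passed, by p, or the 2 with the highest FPKM, the nearest tested genes, and the 3 genes most like each member with a mean of at least 1 CPM. Alternatives were DESeq2 1.42.0, scaling to total counts, no count filter, another set of libraries, a replicate block, FPKM with a pseudocount of 0.1, and each library left out in turn. The 18 replicate pairs were not copies, with a chi-square of 37.42 to 300.5 per degree of freedom. The test was tried on simulated data with changes put only into genes averaging at least 10 CPM, which Ces1d and Trpm6 do not reach. The outcome is not reported here. RefSeq gave positions for 16372 of the 16417 gene IDs. Counts do not carry molecular identifiers, so low counts understate the error. Not every gene covered by this rule is reported here.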

Additional observations from a re-analysis of the deposited data

Results flagged for a closer look

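Trpm6 in GV CKO replicate 1 stood at 4.4 CPM, below the other 3 GV CKO libraries (5.03, 5.1 and 5.11 CPM), with a gap of 0.887 of the range of the group. The sample was far from the others relative to a range that is itself narrow, and it lay in the direction of the CKO difference. Of 14 combinations of gene and GV group examined in this way, this was the 1 that stood out, and chance alone picks out about 1 in 20 such groups.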

How the results depend on the processing

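The CKO over WT direction of each of the 7 genes was the same under all alternatives run, 98 values at GV and 84 after ovulation. Of those after ovulation 2 were flagged as moved. They were Gm29797 without CKO replicate 1 (1.99, main 3.39, SE 0.893) and Trpm6 on FPKM (−1.08, main −1.36, SE 0.423). The Trpm6 value stayed within 1 SE of the main value but lay outside its range with each library left out (−1.55 to −1.22). Of 84 stage values in WT 83 stayed on their side of the threshold, and of 84 in CKO 68 did. The sign turned in 0 of the WT values and in 4 of the CKO values, all 4 for Ptgds, which was not called. The call was lost in 16 CKO values, 9 for Myo1e, 5 for Ces1d and 2 for Trpm6. Counts of all genes called depended more on the fit. CKO against WT gave 3 genes at GV and 1 after ovulation with edgeR, and 39 (14 higher, 25 lower) and 114 (107 higher, 7 lower) with DESeq2. The fit of all 14 libraries gave 64 (61 higher, 3 lower) after ovulation. Leaving out each library gave 3 to 6 genes at GV (6 without CKO replicate 1 or 4) and 1 to 201 after ovulation (201 without CKO replicate 3, 3 without WT replicate 3). The cause was not tested. The labels do not say whether replicate numbers pair the libraries. Deviations of same-numbered libraries correlated between −0.217 and 0.287, which cannot settle it, and the main fits used no pairing. With a replicate block the SE of the Ptgds CKO difference was 0.406 at GV (main 0.625) and 0.473 after ovulation (main 0.727). For the other members it was larger than in the main fit in some cases, such as Ces1d after ovulation (0.66, main 0.57). In others it was smaller, such as Ces1d at GV (0.33, main 0.365) and Hoxa7 at GV (0.238, main 0.265). A replicate block gave 3 genes at GV, 1 after ovulation, 6853 (main 8376) in the WT and 6030 (main 7332) in the CKO stage comparison, and in the latter Trpm6 (−1.03, edgeR adjusted p = 0.06) and Myo1e (−0.51, edgeR adjusted p = 0.287) did not pass. Depth limits Gm29797 after ovulation, Ptgds in ovulated WT and Ces1d in CKO, where libraries held as few as 8, 11 and 11 counts.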
